A study of Mus musculus with 4 samples.

Results

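Leukocyte adhesion molecules of the vessel wall and their leukocyte partners were described in mouse heart grafts through 7 genes of the 30905 in the count matrix, taken by symbol: Sele, Selp, Vcam1, Icam1 and Icam2 on the vessel side and Itga4 and Itgal on the leukocyte side. All 7 had a row. Their UMIs (unique molecular identifiers, each standing for 1 captured RNA molecule) summed to 3916 for Sele, 10882 for Selp, 81620 for Vcam1, 221707 for Icam1, 49889 for Icam2, 27584 for Itga4 and 22446 for Itgal, and between 82.4% and 88.2% of them lay in the cells kept for analysis.

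The grafts were hearts of BALB/c donors (allogeneic, 2 grafts) or of C57BL/6J donors (syngeneic, 2 grafts), placed in the abdomen of C57BL/6J recipients and taken on day 5 for droplet single-cell RNA sequencing. The matrix divides its 53824 barcodes into 4 libraries by a suffix, numbered 1 to 4 here, and nothing used here ties a suffix to a graft. All cells were therefore 1 pooled sample without replicates, donor strains were not compared, and the libraries are given side by side with intervals (95%, Poisson for levels) that cover counting error only. Levels are UMIs of a gene per 1000000 non-mitochondrial UMIs (CPM), summed over the cells of a class, and a graft holds both donor cells and cells arriving from the recipient. The libraries held 13112 to 13907 barcodes and 96020294 to 166079145 UMIs, and 42395 barcodes were kept. Each pair of libraries shared 40 to 60 barcode sequences. Clusters of cells were named from lists of marker genes: 14215 were endothelial-like, 5557 fibroblast-like, 1677 pericyte-like, 744 smooth muscle-like, 7514 macrophage-like, 3839 granulocyte-like, 1873 T/NK-like and 322 B-like, while 4392 stayed unnamed. Different clusters held most of the endothelial-like cells of library 4 (led by Ubd, Gbp2b and Tpm3-rs7), of library 2 (led by Timp4 and Car4, among others) and of libraries 1 and 3 (led by Aplnr and C1qtnf9). The fibroblast-like cells were likewise divided by library, so a library difference within a class is also a difference between clusters.

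A leukocyte leaves the blood in steps. Endothelial selectins, E-selectin (Sele) and P-selectin (Selp), bind sugars on leukocyte glycoproteins and let the cell roll, after which leukocyte integrins hold it by binding immunoglobulin-family ligands on the endothelium. VCAM-1 (Vcam1) is bound by the integrin whose alpha chain is encoded by Itga4, and ICAM-1 (Icam1) and ICAM-2 (Icam2) are bound by LFA-1, whose alpha chain is encoded by Itgal. Inflammatory cytokines induce Sele, Vcam1 and Icam1 in endothelium, whereas Icam2 is known as a constitutive endothelial ligand and P-selectin is also stored in granules of endothelial cells and platelets.

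In GRCm38 (GENCODE annotation), Sele lies at chr1:164048234-164057677 and Selp at chr1:164115264-164150026, neighbours on the plus strand of the same chromosome. Vcam1 lies at chr3:116109949-116129688 on the minus strand, Icam1 at chr9:21015985-21028817 on the plus strand and Icam2 at chr11:106377656-106388075 on the minus strand. Itga4 lies at chr2:79255426-79333123 and Itgal at chr7:127296260-127335138, both on the plus strand. RefSeq promoter sequence (GRCm38.p6) was at hand for 4 of the 7 members, and the 250 bases before the annotated start are printed for the cytokine-inducible Icam1 and Sele and for Selp, which was high in the same subclusters as Sele. Capitals mark matches, on either strand, to a kappaB-like motif searched as GGNNNTTCC, found in 15.7% of the 32851 mouse promoters, or to an interferon-gamma-activated-site-like motif searched as TTCNNNGAA, found in 7.02%.
Icam1, plus strand, chr9:21015690-21015939: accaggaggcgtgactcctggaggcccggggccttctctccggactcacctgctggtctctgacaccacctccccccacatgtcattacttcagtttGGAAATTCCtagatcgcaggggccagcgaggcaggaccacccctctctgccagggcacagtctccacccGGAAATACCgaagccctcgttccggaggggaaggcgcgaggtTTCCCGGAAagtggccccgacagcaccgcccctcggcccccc
Sele, plus strand, chr1:164047984-164048233: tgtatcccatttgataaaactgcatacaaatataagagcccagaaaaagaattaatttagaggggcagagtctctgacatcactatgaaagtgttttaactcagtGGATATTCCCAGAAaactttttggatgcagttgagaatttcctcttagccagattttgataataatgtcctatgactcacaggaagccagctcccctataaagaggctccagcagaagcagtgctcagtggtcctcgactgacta
Selp, plus strand, chr1:164115014-164115263: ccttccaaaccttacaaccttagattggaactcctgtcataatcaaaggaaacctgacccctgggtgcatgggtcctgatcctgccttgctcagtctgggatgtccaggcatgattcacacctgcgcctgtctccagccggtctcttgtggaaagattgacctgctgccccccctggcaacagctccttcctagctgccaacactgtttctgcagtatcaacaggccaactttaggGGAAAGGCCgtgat
The Icam1 window held 2 kappaB-like matches (positions -153 to -145 and -84 to -76 from the start, which is base 0) and 1 TTCNNNGAA match (-42 to -34). The Sele window held 1 of each, overlapping one another at -145 to -137 and -140 to -132. The Selp window held 1 kappaB-like match, at -14 to -6, and the Itga4 window held a match to neither motif. A match is a run of letters and says nothing on binding.

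Across cell classes, each vessel-side gene had its own distribution. Icam1 and Icam2 were highest in endothelial-like cells, Vcam1 in fibroblast-like cells when libraries were pooled, Sele in pericyte-like cells, and Selp in endothelial-like cells and in a mixed class named from Schwann cell markers. Itga4 was highest in B-like cells and Itgal in T/NK-like cells. Against the pooled leukocyte classes, 5 members were at least 2-fold higher in endothelial-like cells (fold with 10 CPM added to both), which was true of 18.5% of the 9175 genes with enough counts. Both integrin chains were at least 2-fold lower, as were 12.7% of the genes. The members were chosen as vessel ligands and leukocyte receptors, so this division describes them and is no test.

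**Figure D1:**
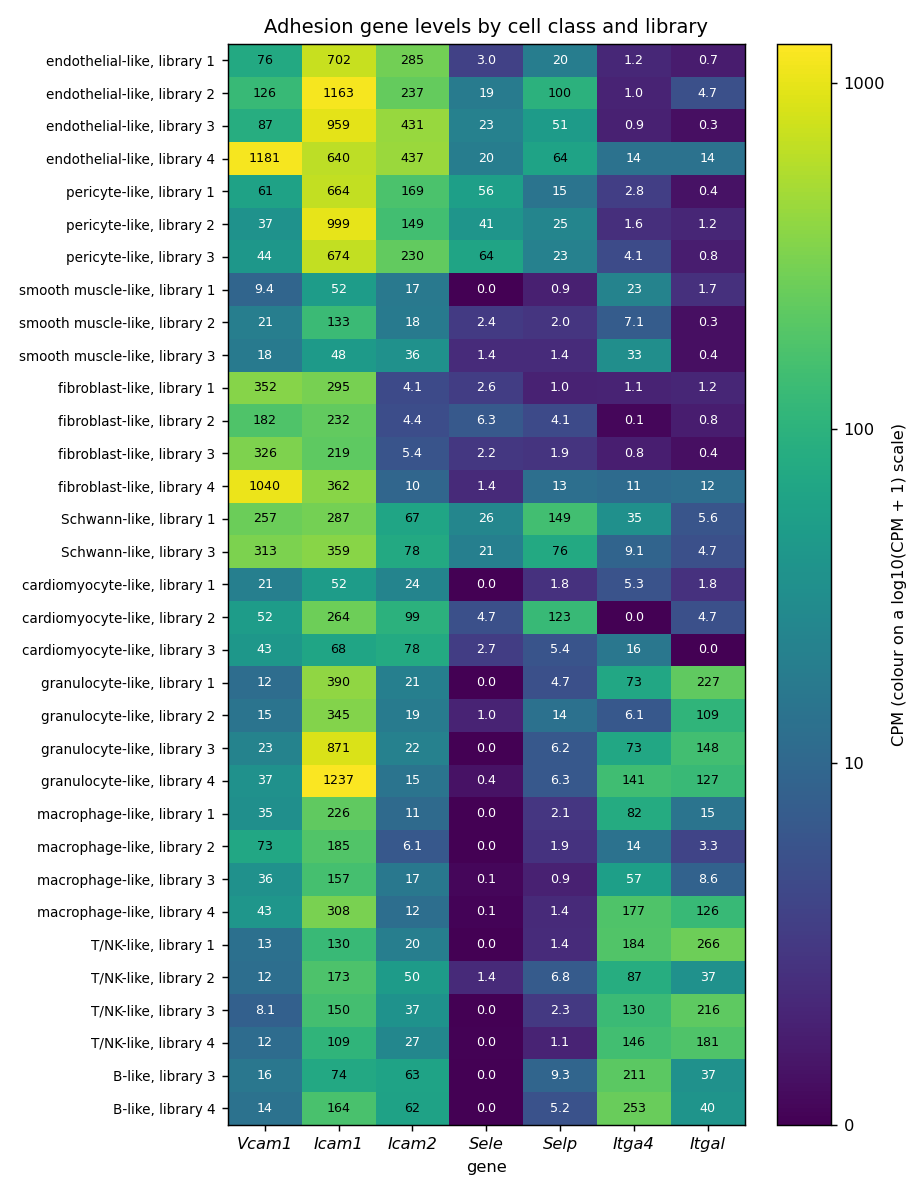
Level of each of the 7 genes (columns, CPM printed in the cells, colour on a log10(CPM + 1) scale) in every class and library with at least 50 cells (rows). The endothelial-like and fibroblast-like rows of library 4 have the highest Vcam1 (1181 and 1040 CPM), and Sele stays below 10 CPM outside endothelial-like, pericyte-like and Schwann-like rows.

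Sele, the E-selectin gene, was scarce in endothelial-like cells. Its level there was 3.02 CPM in library 1 (interval 2.34 to 3.82), 18.7 CPM in library 2 (17.4 to 20.1), 22.6 CPM in library 3 (21.1 to 24.3) and 19.7 CPM in library 4 (16.8 to 22.9). Library 1 was thus below the other libraries, while libraries 2 and 4, and libraries 3 and 4, had overlapping intervals. Of the 736 Sele UMIs of library 2, 415 lay in 95 cells of endothelial subcluster 11, described below, with a Vwf UMI. Another 86 lay in its 118 cells without one. Separate set 5, described below and mostly of libraries 1 and 3, had 76.0 CPM of Sele but is not in the class. The library order can therefore depend on which clusters were named. Only 3.38% of endothelial-like cells had a Sele UMI, against 0.107% of T/NK-like cells, which lack the gene and were sequenced more deeply (median 8422 UMIs per cell against 4971). The level also depended on the deep cells. With each cell of at least 1000 UMIs (12651 of the 14215) thinned to 1000 UMIs it was 10.9 CPM, against 16.7 CPM unthinned over all cells. Here and in every thinned value below, cells with fewer UMIs were left out.

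Pericyte-like cells held more Sele than endothelial-like cells in each library with enough of them. The level was 56.3 CPM in library 1, 40.9 CPM in library 2 and 64.4 CPM in library 3, and 17.4% of the 1677 cells had a UMI. These cells were named from mural markers such as Kcnj8, a potassium channel gene at 548 CPM in the class, but they also held Cdh5, the gene of the endothelial junction protein VE-cadherin, at 742 CPM, the 10 endothelial markers summed to 4932 to 5891 CPM over libraries 1 to 3, none of them at 0, and 1013 of the cells had a UMI of Cdh5 or Pecam1. A split by that criterion, chosen after the values were seen, gave 41.6 CPM of Sele (38.4 to 44.9) in the cells with such a UMI and 113.6 CPM (101.5 to 126.8) in the 664 cells without. The order held within library 1 (36.1 and 166 CPM), library 2 (35.6 and 78.6 CPM) and library 3 (52.8 and 127 CPM). The cells without one were shallower (median 3210 UMIs against 13097).

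The other endothelial ligands went the opposite way in the same split. Icam1 was 900 CPM in pericyte-like cells with a Cdh5 or Pecam1 UMI and 143 CPM in those without. Icam2 was 212 and 12.1 CPM, and Selp 23.9 and 4.27 CPM. Of the vessel-side genes, Sele and Vcam1 (50.8 and 85.8 CPM) were thus higher per UMI in the pericyte-like cells without a Cdh5 or Pecam1 UMI. For Vcam1 the order did not hold in library 2 (41.4 and 8.21 CPM).

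Selp, the P-selectin gene, was concentrated in a minority of endothelial-like cells. Its level was 19.9 CPM in library 1, 100.4 CPM in library 2, 50.7 CPM in library 3 and 63.8 CPM in library 4, with library 2 highest and no overlap of intervals between any pair. Of the 3946 Selp UMIs of library 2, 2471 lay in 95 cells of endothelial subcluster 11, described below, with a Vwf UMI. Another 619 lay in its 118 cells without one. Separate set 5, described below and mostly of libraries 1 and 3, had 241 CPM of Selp but is not in the class. The library order can therefore depend on which clusters were named, and library levels with that set added were not computed. Only 6.14% of endothelial-like cells had a Selp UMI, against 1.49% of T/NK-like cells. Without library 2 the pooled level was 41.7 CPM, against 63.7 CPM with it. The Schwann-like class had 88.7 CPM of Selp in 5.21% of its cells, together with 302 CPM of Cdh5. In pericyte-like cells Selp stood at 15 to 25.3 CPM over libraries 1 to 3, and in fibroblast-like cells at 0.989 to 12.8 CPM over the 4 libraries.

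**Figure D2:**
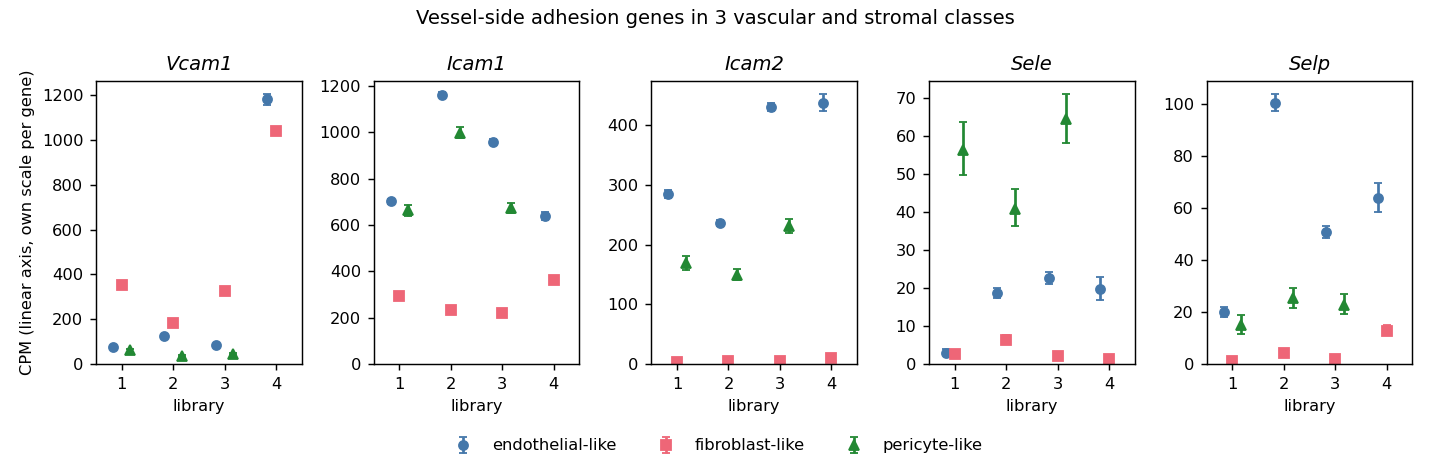
Level (CPM, linear axis with its own scale for each gene) of the 5 vessel-side genes by library in endothelial-like, fibroblast-like and pericyte-like cells; bars are 95% Poisson intervals and cover counting error only, and library 4 held too few pericyte-like cells. Vcam1 in library 4 lies apart in both endothelial-like and fibroblast-like cells, and Sele is higher in pericyte-like than in endothelial-like cells in libraries 1 to 3.

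Vcam1, the ligand of the Itga4 integrin, had the largest ratio between libraries among the 7 genes in endothelial-like cells once 10 CPM was added to each level. In endothelial-like cells it was 75.9 CPM in library 1 (72.3 to 79.6), 126 CPM in library 2 (122 to 129), 87.0 CPM in library 3 (83.9 to 90.2) and 1181 CPM in library 4 (1158 to 1205). Library 4 lay far above the others, whose levels differed among themselves by far less. The highest library was 13.9-fold above the lowest (10 CPM added to both), a ratio that 0.597% of the 9043 genes reached, while 21.7% of genes reached 2-fold. Of the 7 members, 5 reached 2-fold, at 3.69-fold for Selp, 2.51-fold for Sele, 2.30-fold for Itgal and 2.2-fold for Itga4 beside Vcam1. A gene was counted only if its highest library had at least 10 CPM. Itgal (13.8 CPM) and Itga4 (14.0 CPM) entered through library 4 alone, the library that set their ratios. In the other libraries they were near the floor, at 4.70 and 1.24 CPM or less. Icam1 and Icam2 stood at 1.81-fold each.

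The share of endothelial-like cells with a Vcam1 UMI gave the same picture as the level. It was 16.4%, 17.7%, 25.8% and 88.1% in libraries 1 to 4. The endothelial-like cells of library 4 were deeper (median 9556 UMIs against 3678 to 7135), and at an equal 1000 UMIs per cell the shares were 5.10%, 6.64%, 5.78% and 53.3%. T/NK-like cells of library 4, at a median of 11249 UMIs, had a Vcam1 UMI in 15.2% and a level of 11.6 CPM. Without library 4 the pooled level of Vcam1 in endothelial-like cells was 100.2 CPM, against 186 CPM with it, and the mean that weights the 4 libraries equally was 367 CPM. Leukocyte transcripts were also higher in the endothelial-like cells of library 4, with Ptprc, the pan-leukocyte CD45 gene, at 42.4 CPM against 3.9 to 15.6 CPM, and the myeloid gene Lyz2 at 481 CPM against 55.4 to 121 CPM. The 10 macrophage markers summed to 127, 253, 207 and 905 CPM in libraries 1 to 4, none of them at 0 and 8 highest in library 4, and all 11 T/NK markers were highest there. In the 31 endothelial-like cells of library 4 without a UMI of either Ptprc or Lyz2, a selection made after the values were seen, Vcam1 was 1127 CPM (981 to 1290). These cells were shallower than the class in that library (median 4209 UMIs against 9556). Macrophage-like cells of the same library had 42.9 CPM of Vcam1, below the endothelial-like level there. The part of leukocyte transcripts in the Vcam1 level of library 4 was not tested.

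Fibroblast-like cells carried Vcam1 in all 4 libraries. The level was 352 CPM in library 1, 182 CPM in library 2, 326 CPM in library 3 and 1040 CPM in library 4, again with library 4 apart. In the 33 fibroblast-like cells of library 4 without a Ptprc or Lyz2 UMI, selected in the same way, which were shallow (median 1749 UMIs), it was 686 CPM (559 to 834). In libraries 1 to 3 the fibroblast-like level was above the endothelial-like one, and in library 4 it was below it. Pericyte-like cells had 37.3 to 60.7 CPM and smooth muscle-like cells 9.37 to 20.5 CPM over libraries 1 to 3. Among the named leukocyte classes the highest level in a library was 73.4 CPM, in macrophage-like cells of library 2.

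Icam1, the ligand of LFA-1, had another order of libraries than Vcam1. It was 702 CPM in endothelial-like cells of library 1 (692 to 713), 1163 CPM in library 2 (1152 to 1174), 959 CPM in library 3 (949 to 970) and 640 CPM in library 4 (623 to 657). Library 4 was thus the lowest for Icam1 and the highest for Vcam1. The shares of cells with an Icam1 UMI, 62.0%, 62.8%, 72.0% and 79.7%, were highest in library 4, where cells were deepest, but at 1000 UMIs per cell they were 32.5%, 45.6%, 39.6% and 34.0%, with libraries 2 and 3 highest, as by level.

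Outside endothelium, Icam1 was found in every class. Fibroblast-like cells had 295, 232, 219 and 362 CPM in libraries 1 to 4, and macrophage-like cells 226, 185, 157 and 308 CPM. Library 4 was highest in both. Its fibroblast-like cells also held more leukocyte transcript. The 10 macrophage markers summed to 1157 CPM there, against 74.0 to 159 CPM in the other libraries. In the 33 of these cells without a Ptprc or Lyz2 UMI, Icam1 was 251 CPM (177 to 347), against 286 CPM in such cells of library 1. These 33 cells were shallow (median 1749 UMIs, against 26011 in the class in that library). Their interval spans the fibroblast-like levels of the other libraries. The part of leukocyte transcripts in the fibroblast-like Icam1 level of library 4 was not tested. Granulocyte-like cells had 390, 345, 871 and 1237 CPM, so that in library 4 they stood above the endothelial-like cells of the same library. In those granulocyte-like cells the endothelial gene Cdh5 was at 6.7 CPM and Icam2 at 14.6 CPM. Of the 782 granulocyte-like cells of library 4, 776 came from a cluster led by Trim30c, Slfn4 and Asprv1, while 2060 of the 2702 in library 2 came from one led by Retnlg, Cd177 and Wfdc21. Smooth muscle-like cells had 48.3 to 133 CPM, and erythroid-like cells, which should lack the gene, 17.3 CPM.

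Icam2 was largely an endothelial transcript. It was 285 CPM in library 1, 237 CPM in library 2, 431 CPM in library 3 and 437 CPM in library 4, where the intervals of libraries 3 and 4 (424 to 438 and 423 to 452) overlapped. Fibroblast-like cells, though much deeper (median 15630 UMIs), had 5.49 CPM and a UMI in 6.84%, against 65.0% of endothelial-like cells. Pericyte-like cells had 149 to 230 CPM, and 3315 of their Icam2 UMIs lay in those with a Cdh5 or Pecam1 UMI, against 34 in those without. In B-like cells Icam2 was 71.1 CPM and in T/NK-like cells 27.3 CPM.

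Clustering the endothelial-like cells again, without the adhesion genes among the variable genes, gave 12 subclusters, most of them held by 1 library or by libraries 1 and 3. A further 1932 cells, from a cluster that had 9 of 10 endothelial markers but stayed unnamed because its depth was low (median 1754 UMIs) and none of these markers was among its 10 leading genes, were held by libraries 1 and 3 and clustered separately. Subclusters 3, 7 and 10 were led by genes of other cells (S100a8, Cxcl3 and hemoglobin genes among them), and are not described singly. They held 2045, 825 and 217 of the 6702 endothelial-like cells of library 2, against 3, 0 and 70 of 3604 in library 1. They were thus a large part of the endothelial-like cells of library 2. Levels sum UMIs, however, and subcluster 3 was shallow (median 831 UMIs, against 3678 in the endothelial-like cells of library 2). Its share of the cells therefore overstates its part in the levels given for that library.

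**Figure D3:**
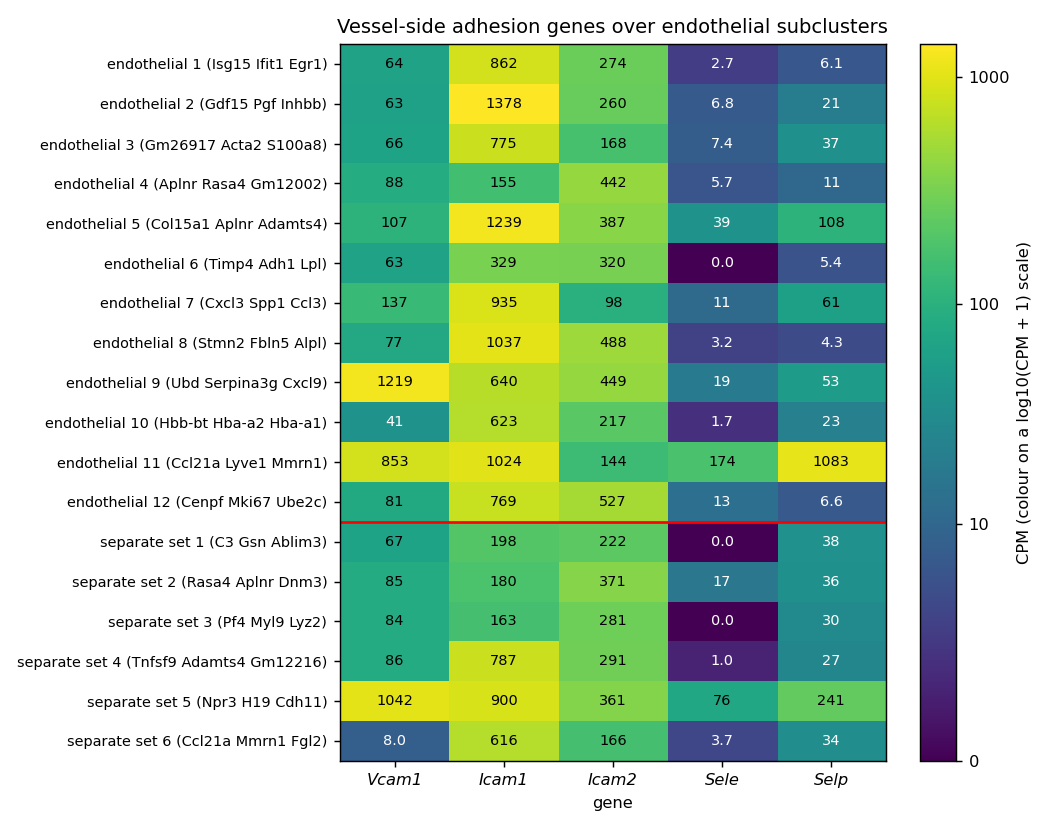
Level (CPM, printed and coloured on a log10(CPM + 1) scale) of the 5 vessel-side genes in the endothelial subclusters, each with its 3 leading genes; rows under the red line are the separately clustered set that was not named. Vcam1 is at 853 CPM or more in 3 rows only (endothelial 9 and 11 and separate set 5), and Sele and Selp are highest in 2 of these.

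Vcam1 was high in 3 of these sets and low in the rest. The first was subcluster 9, led by Ubd, Serpina3g and Cxcl9, with 1219 CPM (1195 to 1244); of its 623 cells, 621 came from library 4. Cxcl9, an interferon-gamma-induced chemokine gene, was at 10362 CPM in it and at 591 CPM or less in every other endothelial set. The second was the separate set 5, led by Npr3, H19 and Cdh11, with 1042 CPM (993 to 1092) in 158 cells. It held venous markers, among them Nr2f2, Vwf, Ackr1 and Plvap, but stayed unnamed, and came from library 1 (1201 CPM, 95 cells) and library 3 (711 CPM, 59 cells). The third was subcluster 11, with 853 CPM (820 to 887), of which 213 of 234 cells came from library 2. In each library, then, a set of endothelial cells was high in Vcam1, and in library 4 that set held 621 of the 639 endothelial-like cells. The other sets of at least 50 cells stood between 40.9 and 137 CPM, apart from the lymphatic-like separate set 6, at 8.01 CPM.

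Selectin levels were not highest where Cxcl9 was. In subcluster 9, high in Vcam1, Selp was 53.1 CPM and Sele 19.0 CPM, and Vwf, the gene of von Willebrand factor, 12.3 CPM. In the separate set 5, where Vwf was 1307 CPM, Selp was 241 CPM and Sele 76.0 CPM. Subcluster 11 had the highest selectin levels of all, with Selp at 1083 CPM (1046 to 1121) and Sele at 174 CPM (159 to 190). After separate set 5 came subcluster 5, led by Col15a1, Aplnr and Adamts4 and held mostly by library 3, with Selp at 108 CPM and Sele at 39.2 CPM. In the capillary-like subcluster 6 no Sele UMI was found in 886 cells, which allows a share of cells with a UMI of up to 0.339% (3 cells of the total) at this depth (median 3963.5 UMIs) and does not limit the share expressing the gene. Selp was 5.44 CPM there. The arterial-like subcluster 8 had 3.20 CPM of Sele and 4.32 CPM of Selp.

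Subcluster 11 was named lymphatic-like from its markers (7 of 7, with Ccl21a, Lyve1 and Mmrn1 leading), but its cells differed in the marker UMIs they held. Whether it mixed kinds of cell was not tested. Of its 234 cells, 67 had a UMI of Prox1, Lyve1 or Mmrn1 and none of Vwf, 53 had Vwf and none of these lymphatic genes, 44 had both and 70 had neither. By this split, chosen after the values were seen, Vcam1 was 1365 CPM in the cells with Vwf alone, 1918 CPM in those with both and 225 CPM in those with lymphatic genes alone. Selp was 2274, 1475 and 531 CPM in the same order, and Sele 405, 225 and 72.5 CPM. These 3 genes therefore lay mostly with Vwf. Icam1 followed less steeply, at 1897, 1098 and 753 CPM, and Icam2 was 210, 169 and 110 CPM. The separate lymphatic-like set 6, from libraries 1 and 3, had 3.74 CPM of Sele and 34.2 CPM of Selp. The groups differed in depth, at medians of 8919, 13597 and 11589 UMIs in the same order, and the 70 cells with neither had a median of 4366 UMIs and the lowest levels.

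**Figure D4:**
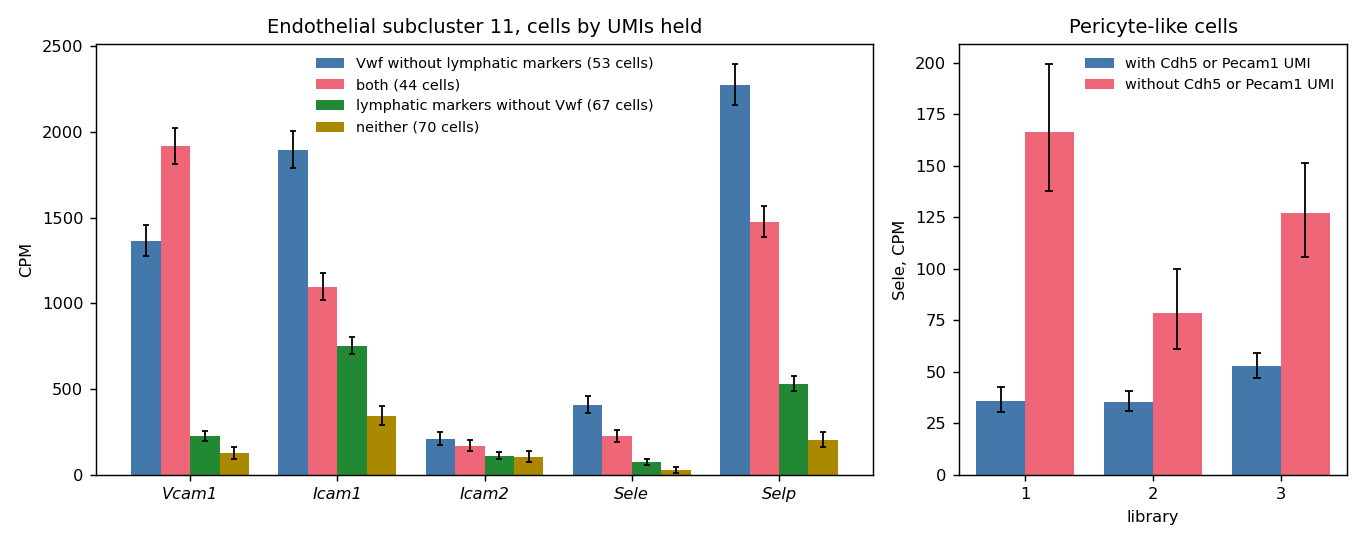
Left, level (CPM) of the vessel-side genes in the cells of endothelial subcluster 11 divided by whether they held UMIs of Vwf, of a lymphatic gene (Prox1, Lyve1 or Mmrn1), of both or of neither; right, Sele (CPM) in pericyte-like cells with and without a UMI of Cdh5 or Pecam1 in libraries 1 to 3. Bars are 95% Poisson intervals. Vcam1, Sele and Selp are highest in the cells with Vwf, and Sele is higher in pericyte-like cells without a UMI of Cdh5 or Pecam1.

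Icam1 was ordered differently over the subclusters. It was highest in subcluster 2 (1378 CPM, led by Gdf15, Pgf and Inhbb, from library 2) and subcluster 5 (1239 CPM), and was 1037 CPM in the arterial-like subcluster 8. It was lowest in subcluster 4 (155 CPM, led by Aplnr, Rasa4 and Gm12002), where library 1 had 163 CPM and library 3 had 149 CPM, although the same libraries had 794 and 1107 CPM in subcluster 1, led by Isg15, Ifit1 and Egr1. Within libraries 1 and 3, therefore, endothelial-like cells of different subclusters differed more in Icam1 than the 4 libraries did as wholes. Icam2 varied less, from 144 CPM in subcluster 11 to 527 CPM in the cycling subcluster 12, with the arterial-like subcluster 8 at 488 CPM and subcluster 4 at 442 CPM.

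Detection of pairs of genes in single cells was set against the product of the separate shares, within a subcluster and library and at 1000 UMIs per cell. In subcluster 5 of library 3, Sele and Selp were found together in 1.08% of 1017 cells (exact binomial interval 0.541% to 1.93%), against a product of 0.141%, and Vcam1 and Selp in 1.67% (0.977% to 2.66%), against 0.364%. There, both pairs were thus found together more often than the product. In subcluster 11 of library 2, Vcam1 and Selp were together in 20.8% of 212 cells (15.5% to 26.8%), against 11.8%, and Vcam1 and Icam1 in 21.7% (16.3% to 27.9%), against 13.7%. In subcluster 2 of library 2, Vcam1 and Selp were together in 0.401% (0.192% to 0.736%), against 0.0475%. In the 2 other sets high in Vcam1 the product for Vcam1 and Selp lay within the interval, at 1.47% against 1.94% (1.00% to 3.36%) in subcluster 9 of library 4 and at 9.75% against 11.6% (5.92% to 19.8%) in separate set 5 of library 1. Pairs were looked at in 20 sets, each an endothelial subcluster or separate set 5 in a library with at least 50 cells. The other separate sets were not looked at. Over the 20, Sele and Selp were together beyond the interval in 5, Vcam1 and Selp in 4, Vcam1 and Sele in 4 and Vcam1 and Icam1 in 4. Some of these rest on few cells, such as subcluster 1 of library 1, with 1 cell for Sele and Selp and 3 for Vcam1 and Selp. Subcluster 5 of library 3 was one of the 4 for Vcam1 and Icam1 (6.49%, 5.05% to 8.18%, against 4.61%), and subcluster 9 of library 4 was not (20.6%, 17.5% to 24%, against 18%). None of these pairs fell below the product beyond the interval in any set. For Icam1 and Icam2 the product lay within the interval in all 20, as in subcluster 5 of library 3 (17.2%, interval 14.9% to 19.7%, against 18.4%).

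On the leukocyte side, Itga4, the alpha chain that pairs with Itgb1 or Itgb7, was widely spread. It was 217 CPM in B-like cells (194 to 243), 154 CPM in macrophage-like cells (151 to 156), 146 CPM in T/NK-like cells (142 to 151) and 33.0 CPM in granulocyte-like cells (30.2 to 36.0). T/NK-like cells had 184 CPM in library 1, 87.0 CPM in library 2, 130 CPM in library 3 and 146 CPM in library 4. In library 2, 157 of the 163 T/NK-like cells lay in a subcluster led by Fabp4 and S100a8, genes of other cells. In macrophage-like cells Itga4 was 81.7, 14.1, 56.7 and 177 CPM in libraries 1 to 4, and in granulocyte-like cells 73.2, 6.11, 72.7 and 141 CPM. Both myeloid classes were thus lowest in library 2 and highest in library 4. The macrophage-like class leaves out an unnamed Arg1-led cluster, described in the closing section, which had more Itga4 in libraries 1 and 2. Fibroblast-like cells had a UMI of Itga4 in 2.54%, against 62.8% of T/NK-like cells.

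Among myeloid subclusters Itga4 was highest in the pair named as monocyte-like. The nonclassical monocyte-like subcluster 5, led by Treml4, Itgal and Trem3, had 390 CPM (378 to 402), and the infiltrating monocyte-like subcluster 4, led by Chil3, Vcan and Ly6c2, had 231 CPM (223 to 238); both came from library 4. Subcluster 3, led by Fcrls, Gdf15 and Cx3cr1 and held by libraries 1 and 3, had 64.2 CPM, and the resident macrophage-like subcluster 8 of library 2, led by Cd163, had 16.0 CPM (11.1 to 22.3). The pair of monocyte-like subclusters was therefore above subcluster 8 and above subcluster 3, which stayed unnamed, but these sets were also from different libraries, so cell type and library cannot be told apart here. Among lymphocytes, the CD4 T-like subcluster had 220 CPM and the gamma-delta T-like one 34.7 CPM (16.7 to 63.9, 53 cells).

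Itgal, the alpha chain of LFA-1, was highest in cytotoxic and innate-like lymphocytes and in the same nonclassical monocytes. T/NK-like cells had 266 CPM in library 1, 36.7 CPM in library 2, 216 CPM in library 3 and 181 CPM in library 4, with library 2 low as for Itga4. The NK-like subclusters 7 (libraries 1 and 3) and 3 (library 4) had 328 CPM (293 to 367) and 276 CPM (255 to 298), and the gamma-delta T-like subcluster 313 CPM (251 to 384), whose interval overlapped both. The gamma-delta T-like cells thus combined one of the highest Itgal levels with the lowest Itga4 level among T/NK subclusters. B-like cells showed the opposite, with 33.7 CPM of Itgal and the highest Itga4 of the classes. Granulocyte-like cells had 227, 109, 148 and 127 CPM in libraries 1 to 4.

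In macrophage-like cells, Itgal separated the libraries more than Itga4 did. It was 15 CPM in library 1, 3.30 CPM in library 2, 8.59 CPM in library 3 and 126 CPM in library 4. An unnamed cluster led by Arg1, with 6 of 10 macrophage markers, is not in this class. It held 848 cells of library 2, against 149 macrophage-like ones, and 107 of library 1, against 434. Its Itgal level, given in the closing section, was above that of the class in both libraries, so these levels depend on the naming. The nonclassical monocyte-like subcluster had 362 CPM (351 to 374) and the infiltrating monocyte-like one 158 CPM, against 3.76 CPM in the resident macrophage-like subcluster 8 and, for the Fcrls-led subcluster 3, 8.91 CPM. The 5855 macrophage-like cells of library 4 lay mostly in a pair of clusters, of whose 3791 and 2069 cells 3790 and 2052 came from that library.

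**Figure D5:**
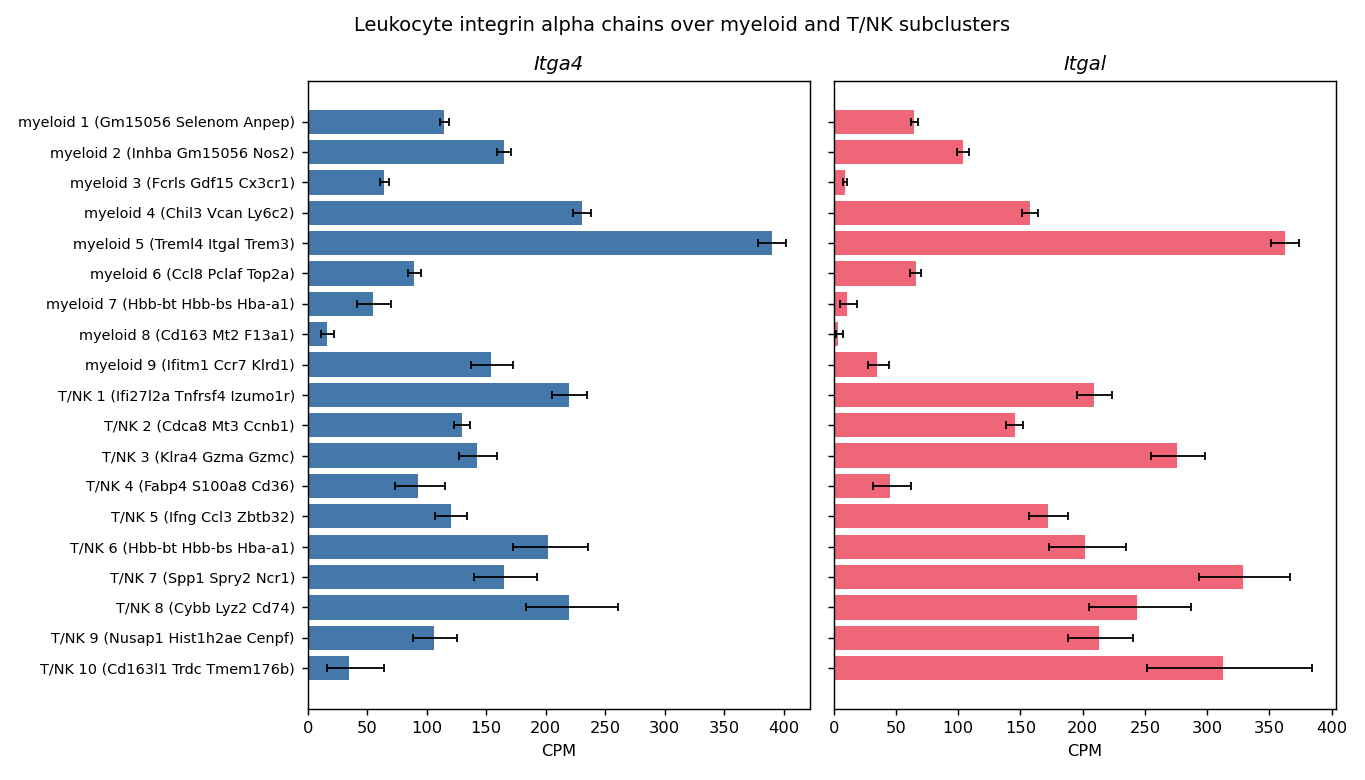
Level (CPM, linear axis from 0) of Itga4 and Itgal in the myeloid and T/NK subclusters, each with its 3 leading genes; bars are 95% Poisson intervals. Myeloid subcluster 5 is highest for both, and T/NK subcluster 10 (gamma-delta T-like) is low for Itga4 and high for Itgal.

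Vascular and stromal cells had little of either integrin chain. In endothelial-like cells Itga4 was 0.927 to 1.24 CPM in libraries 1 to 3 and 14.0 CPM in library 4, and Itgal 0.348 to 4.70 CPM and 13.8 CPM. Dividing subcluster 9 by Ptprc, a split chosen after the values were seen, as was the like split of smooth muscle-like cells, Itga4 was 31.4 CPM in the 179 cells with a Ptprc UMI and 4.63 CPM in the 444 without, and Itgal 27.0 and 6.64 CPM. Both integrins were thus higher where CD45 was found, in cells that were also deeper (median 12314 UMIs against 8829). Smooth muscle-like cells were different, with 23.4, 7.06 and 33.4 CPM of Itga4 in libraries 1 to 3, and 19.9 CPM in the 710 cells without a Ptprc UMI, where Itgal was 0.503 CPM.

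The 7 genes were set among 73 genes of leukocyte adhesion in 7 lists, of which 65 had enough counts to compare. Endothelial-like cells were at least 2-fold above the leukocyte classes in 25 (18.5% of all genes), at least 2-fold below in 20 (12.7% of all genes) and between in 20, with a median log2 ratio of 0.29 against 0.21 over all genes. The lists were chosen by known roles on vessels or leukocytes, so these counts describe them and are no test. Endothelial ligands and junction molecules were higher in 17 of 19, among them Esam, an endothelial adhesion molecule (821 against 11.1 CPM), and Cd34, a carrier of selectin ligands (602 against 7.18 CPM). Cdh5 (1214 against 14.7 CPM) and Pecam1 were also among the 17, but both were markers that named the endothelial-like class, so their excess followed from the naming. Alcam, an adhesion molecule that binds CD6, was the 1 lower gene, at 2.99 against 30.4 CPM. Integrin subunits were lower in 6 of 8, with the shared beta chain Itgb2 at 10.2 against 454 CPM, and higher in 1, Itgb1, at 561 against 187 CPM. Selectin and selectin-ligand genes were lower in 5 of 8 and higher in none, with Selplg, which encodes the P-selectin ligand PSGL-1, at 9.80 against 266 CPM.

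The genes of the remaining lists were divided. Of the integrin activation genes, 4 of 9 were lower, including Fermt3, encoding kindlin-3 (4.47 against 174 CPM), and 1 was higher, Rasgrp2, an activator of Rap1 (91.4 against 27.2 CPM). Of the 2 sheddases, neither Adam10 nor Adam17 reached 2-fold. Cytokine receptor and regulator genes were higher in 1 of 14, the interleukin-1 receptor Il1r1 (43.4 against 1.94 CPM), and lower in 4. All 5 genes linked to quiescent endothelium (Klf2, Klf4, Nos3, Tek and Thbd) were higher.

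Between libraries, 27 of the 60 list genes with enough counts in endothelial-like cells differed at least 2-fold (21.7% of all genes did). Enough counts meant at least 10 CPM in the highest library, so genes such as Itga4 and Itgal entered through that library alone. Irf1, an interferon-responsive factor, was 1185, 197, 695 and 749 CPM in libraries 1 to 4, highest in library 1 and not in library 4 as Vcam1 was. Nfkb1, a subunit gene of NF-kappaB, was 137, 147, 160 and 139 CPM, a much smaller spread. Klf2, a flow-responsive factor of quiescent endothelium, was 2935, 1021, 1636 and 1562 CPM.

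Genes with the most similar distribution to each member were ranked over the 34 class and library sets by Pearson's r of log2(CPM + 10) among 12826 genes, as a description, since the sets share libraries. Icam2 ran closest to Pecam1 (r = 0.96), Ppp1r13b and Robo4. Itga4 ran closest to Sash3 (0.93), Arhgap15 and Slc38a1, and Itgal to Rgs14 (0.94), Ipcef1 and Selplg. The cytokine-inducible ligands had looser neighbours, with Vcam1 closest to Enc1 (0.86), Rcn1 and Ttc9, Icam1 to Dusp6 (0.87), St3gal1 and Cmip, Sele to Fgfr3 (0.85), Sema6d and Tspan15, and Selp to Fam89a (0.89), Arhgef26 and Zfp57. No member was among the 3 closest genes of another, since members were left out of the ranking.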

How the data were processed

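The deposited file was 1 merged matrix of UMI counts per gene and barcode, produced by the authors from droplet libraries (Chromium 3' chemistry) using Cell Ranger 3.0.0 and the mm10 genome, and left unnormalized. Barcodes passed with more than 200 genes detected and less than 20% of UMIs from mitochondrial genes, and the 5% most doublet-like per library were left out by simulation. After log-normalization, 2000 variable genes (adhesion-list genes excluded, and for endothelial subclusters also interferon and antigen-presentation genes), 10 principal components and a 30-neighbour graph were clustered with leidenalg 0.10.2 (resolution 0.8, subclusters 0.5). A class name needed 3 or more markers, each in 10% of cells and 2-fold above other clusters, and was withheld from shallow clusters with none of its markers among the 10 leading genes. It was also withheld where another list had more markers among those 10 genes. CPM were summed over cells, with exact Poisson intervals for levels and exact binomial (Clopper-Pearson) intervals for shares (95%), which cover counting error only. With 1 pooled sample no test between grafts was made. Dixon's test served only to flag library levels for a closer look, as given in the closing section. Genes named were the members, list genes, leading genes of subclusters and the 3 closest genes per member. Steps were tested on simulated data. Members, lists and markers were chosen with earlier results of these data known. Alternatives tried are given in the closing section. Depth was 96020294 to 166079145 UMIs per library.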

Additional observations from a re-analysis of the deposited data

Results flagged for a closer look

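In classes with at least 50 cells in all 4 libraries, 35 sets of 4 library levels were looked at for a library that lay far from the others (Dixon's test at 95%), and 5 had one. Chance alone puts about 1 in 20 sets there, the 4 libraries mix both kinds of graft, and the sets share libraries. Sets whose highest level was under 10 CPM are among the 35 but could not be flagged, so fewer than 35 were open to the test. All 5 concerned library 4. In 3 of them, Itga4 in endothelial-like and both integrins in fibroblast-like cells, only library 4 reached 10 CPM. These 3 were open to the test through library 4 alone, so their pointing to it is no support. Vcam1 in endothelial-like cells was 1181 CPM there, against 75.9 to 126 CPM in the others. Itga4 was 14.0 CPM in its endothelial-like cells and 11.2 CPM in its fibroblast-like cells, against 1.24 CPM or less. Itgal was 12.2 CPM in its fibroblast-like cells, against 1.17 CPM or less, and 126 CPM in its macrophage-like cells, against 3.30 to 15 CPM. Ptprc moved with the 3 low levels, at 42.4 CPM in the endothelial-like and 48.6 CPM in the fibroblast-like cells of library 4, against 15.6 CPM or less in the other libraries; its part in them was not tested.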

How the results depend on the processing

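Levels of the vessel-side genes in endothelial-like cells and of the integrins in T/NK-like cells (CPM) were recomputed under each alternative. Those that left the counting interval were, at resolution 1.6, Vcam1 182, Icam1 937, Icam2 341, Sele 14.7, Selp 43.1; with doublets kept, Vcam1 175, Icam1 977, Icam2 345, Selp 49; with cells thinned to 1000 UMIs, Vcam1 144, Icam1 852, Icam2 309.9, Sele 10.9, Selp 45.6, Itga4 189, Itgal 207; and as the mean of library levels, Vcam1 367, Icam1 866, Icam2 347, Selp 58.7, Itga4 137, Itgal 175. With adhesion-list genes kept among the variable genes, all 7 stayed inside it. Leaving out each library in turn gave Vcam1 100.2 to 235, Icam1 830.1 to 1024, Icam2 276 to 381, Sele 13.8 to 20.5, Selp 41.7 to 75.8, Itga4 144 to 148, Itgal 178 to 196. Alternatives chosen after seeing the data gave, without endothelial subclusters 3, 7 and 10, Vcam1 195, Icam1 969, Icam2 342, Sele 17.5, Selp 65.6, and with the unnamed endothelial cluster 9 added, Vcam1 193, Icam1 929.5, while the integrin levels without T/NK subclusters 4, 6 and 8 stayed inside. Over 1.5 times from the reported level were Vcam1 as the mean of library levels and without library 4, Sele when thinned and Selp without library 2. Of 602 recomputed levels in other classes, 381 stayed in their interval and 97 moved over 1.5 times. No paired analysis was possible because no library could be tied to a graft. Depth limits Sele most, at 3335 UMIs in kept cells.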

Other observations

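The cells that stayed unnamed also held members. A cluster of 1274 cells led by Ccr7, Tbc1d4 and Flt3, mostly from library 4, had 181 CPM of Itga4 and 52.2 CPM of Itgal. A cluster of 1039 cells led by Arg1, Ccl24 and Ccl9, mostly from library 2, had 50.4 CPM of Itga4 and 46.0 CPM of Itgal, where library 1 had 190 and 192 CPM and library 2 had 29.5 and 27.9 CPM. A cluster of 147 cells led by Acta1, Ankrd1 and Cryab, nearly all from library 4, had 263 CPM of Vcam1 and 268 CPM of Icam1, at a median of 772 UMIs per cell.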
